A study of Mus musculus with 8 samples.

Results

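The miR-103 and miR-107 family of microRNAs was followed in the prefrontal cortex of mice that lack Fkbp5 and of wild-type mice. The family was taken by name: the 5 mature names of the miR-103 and miR-107 hairpins, mmu-miR-103-3p, mmu-miR-107-3p, mmu-miR-103-2-5p, mmu-miR-103-1-5p and mmu-miR-107-5p (mmu for mouse, left out below), were all present among the 1915 names of each file. Small RNA was sequenced in 4 libraries labelled Fkbp5 knockout (replicates 1, 2, 4 and 5) and 4 libraries labelled wild type (replicates 1, 2, 3 and 4). All 8 came from mice of C57BL/6 strain background aged 12 weeks, with no treatment named. The labels give neither the Fkbp5 allele nor the number of animals behind a library, so each p-value reflects only how far these libraries vary, which may be technical. Fkbp5 encodes a co-chaperone of the glucocorticoid receptor, but small RNA libraries do not hold its messenger RNA, and the genotype labels could not be checked here.

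A microRNA is cut as an arm from a short hairpin, loaded into an Argonaute protein and guided to messenger RNAs mainly by its seed, bases 2 to 8 from the 5′ end. The miR-103 and miR-107 family is conserved in vertebrates and lies in the genes of the pantothenate kinases, which start the synthesis of coenzyme A. In mice the family is known for lowering insulin sensitivity in liver and fat, and in human cells for acting on the messenger RNA of Dicer, the enzyme that cuts hairpins. In the brain, miR-107 has been studied in people with Alzheimer's disease.

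The mature sequences show how little separates the members, and are given 5′ to 3′ from RefSeq (GRCm38.p6). The seed is in capitals in the 3p arms, which are the guide arms by abundance here.
mmu-miR-103-3p: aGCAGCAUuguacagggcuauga
mmu-miR-107-3p: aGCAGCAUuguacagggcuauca
mmu-miR-103-1-5p: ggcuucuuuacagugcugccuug
mmu-miR-103-2-5p: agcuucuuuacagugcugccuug
mmu-miR-107-5p: agcuucuuuacaguguugccuug
All 5 are 23 bases long. With positions counted from 1 at the 5′ end, miR-103-3p and miR-107-3p differ by G22C alone, so they share the seed, and a read that ends before base 22 cannot be told apart between them. miR-103-1-5p and miR-103-2-5p differ by G1A alone. miR-103-2-5p and miR-107-5p differ by C16U alone. Among the 1623 file names with a sequence in the RefSeq table, 0 names outside the family had the same seed.

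The hairpins are shown with both arms in capitals, because each arm sits at the same place in all 3.
Mir103-1: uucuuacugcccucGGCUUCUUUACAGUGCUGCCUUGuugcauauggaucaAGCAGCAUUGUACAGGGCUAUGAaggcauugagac
Mir103-2: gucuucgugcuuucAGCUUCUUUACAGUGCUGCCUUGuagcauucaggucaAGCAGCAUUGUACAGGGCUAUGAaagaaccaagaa
Mir107: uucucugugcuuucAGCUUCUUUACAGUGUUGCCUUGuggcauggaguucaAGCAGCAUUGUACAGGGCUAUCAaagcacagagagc
The 5p arm took bases 15 to 37 and the 3p arm bases 52 to 74 of every hairpin, with 14 bases between them. Mir103-1 and Mir103-2 were identical at 69 of 86 aligned positions, and differed at 1 position within the arms. Mir107 was identical to Mir103-2 at 73 of 87 aligned positions and to Mir103-1 at 70 of 87. In the lowest-energy fold computed with RNAfold, 18 bases of the 3p arm paired with the 5p arm in each hairpin, and the fold energy was -41.20 kcal/mol for Mir107, -35.80 kcal/mol for Mir103-1 and -31.80 kcal/mol for Mir103-2.

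Each hairpin lies in an intron of a pantothenate kinase gene, on the strand of that gene. Mir103-1 is in intron 5 of 6 of Pank3 (chr11:35782396-35782481, GRCm38), 688 bases after the preceding exon. Mir103-2 is in intron 5 of 6 of Pank2 (chr2:131288052-131288137), 454 bases after the preceding exon, and Pank2 is the member whose human counterpart is mutated in a neurodegeneration with iron in the brain. Mir107 is in intron 5 of 6 of Pank1 (chr19:34820687-34820773, minus strand), 326 bases after the preceding exon. In another coding transcript of Pank1, Pank1-204, the same intron is number 4 of 5. In another of Pank2, Pank2-203, the hairpin lies in a longer intron, number 2 of 3, 13788 bases after the preceding exon. Messenger RNA of the 3 host genes was not measured.

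**Figure D1:**
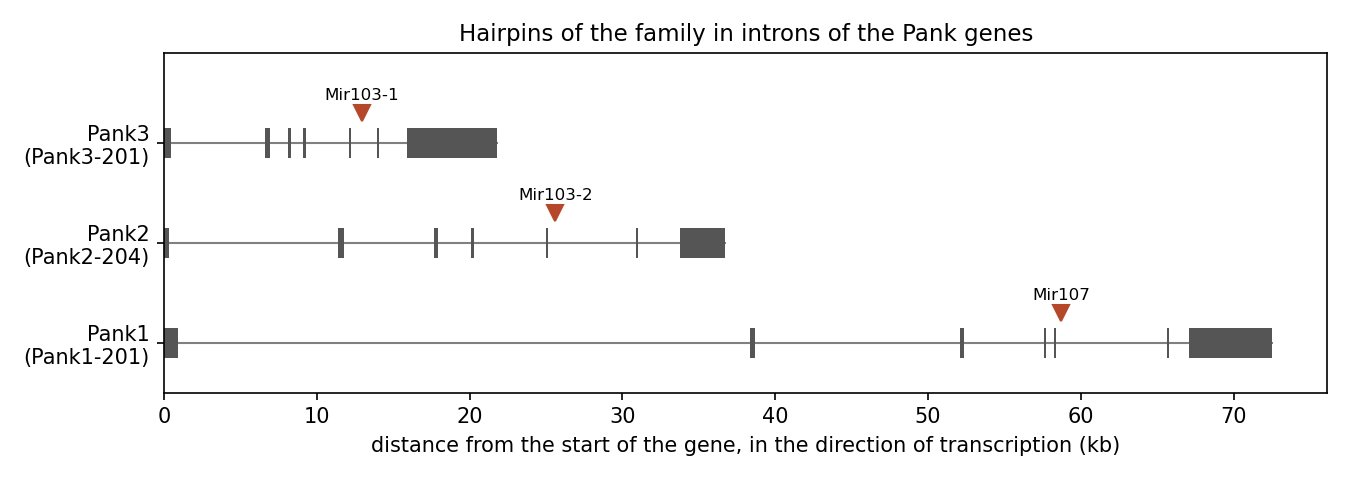
Exons (grey boxes) and hairpins (red triangles) along the 3 host genes, as distance from the start of the gene in kb in the direction of transcription. In each gene the hairpin lies within intron 5 of 6 of the transcript shown, 326 to 688 bases after the preceding exon.

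Library totals averaged 18.6 ± 0.929 in the knockout and 19.1 ± 2.82 in wild type (SD, n = 4 each, units of 1000000), and 963 to 1031 names in knockout libraries and 993 to 1033 in wild-type libraries were above 0. The file headers call the values normalized counts. They were divided by a scaling factor per library, from 0.840 to 1.20, and are given as rescaled values unless said otherwise. The markers fixed for neurons, miR-124-3p, miR-128-3p, miR-9-5p, miR-137-3p and miR-132-3p, were all present and summed to 6349310 to 8361670 in the knockout and 6350680 to 8327850 in wild type. miR-122-5p, the marker of liver, averaged 405.7 ± 65.7 in the knockout and 382.9 ± 25.4 in wild type (SD, n = 4 each), and so was low but not at 0. Wild-type replicate 2 stood high for miR-103-3p and for several other miRNAs, so results that rest on it are also given without it.

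miR-103-3p, the product that both miR-103 hairpins share, held nearly all of the family and stood at about the same level in both genotypes. Its rescaled values were 74574, 73990, 78187 and 74915 in knockout replicates 1, 2, 4 and 5, and 68750, 111336, 76072 and 58651 in wild-type replicates 1, 2, 3 and 4. After rescaling, the 4 knockout libraries lay close together and inside the wild-type range, which was set by a high replicate 2 and a low replicate 4. As deposited, the knockout libraries lay further apart, from 64509 to 87246. The means of the rescaled values were 75416 ± 1886 in the knockout and 78702 ± 22898 in wild type (SD, n = 4 each). By limma on log2(value + 1), the log2 fold change was -0.02 ± 0.16 (SE), with an adjusted p of 0.994. The 95% interval ran from 0.770-fold to 1.26-fold of wild type.

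miR-107-3p, the product of the Pank1 hairpin, was far lower and likewise showed no difference past the spread. Its rescaled values were 1662, 1843, 1638 and 1552 in knockout replicates 1, 2, 4 and 5, and 1334, 2040, 1662 and 1592 in wild-type replicates 1, 2, 3 and 4. Wild-type replicate 2 was again the highest library and wild-type replicate 1 the lowest, and the groups overlapped. The means were 1674 ± 122 in the knockout and 1657 ± 292 in wild type (SD, n = 4 each). The log2 fold change was 0.03 ± 0.14 (SE), with an adjusted p of 0.994 by limma. The 95% interval ran from 0.827-fold to 1.26-fold of wild type.

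These were the 2 of 5 members that passed the filter on low values, a value of 10 in at least 4 libraries. Of them, 0 passed an adjusted p of 0.05 by limma, where 0% of all 599 tested miRNAs did. With an unadjusted p under 0.05 there were also 0 of 2, where 4.01% of all tested miRNAs had one. The groups overlapped for both, and failed to overlap for 1.50% of all tested miRNAs. Both changes were smaller than the median absolute log2 fold change of all tested miRNAs, 0.11. Other scalings kept the sign of each change, but leaving out wild-type replicate 2 turned that of miR-103-3p to 0.16 ± 0.11 (SE, adjusted p = 0.943 by limma). That of miR-107-3p became -0.02 without knockout replicate 2, 0.13 when wild-type replicate 2 was dropped and -0.06 when wild-type replicate 1 was.

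**Figure D2:**
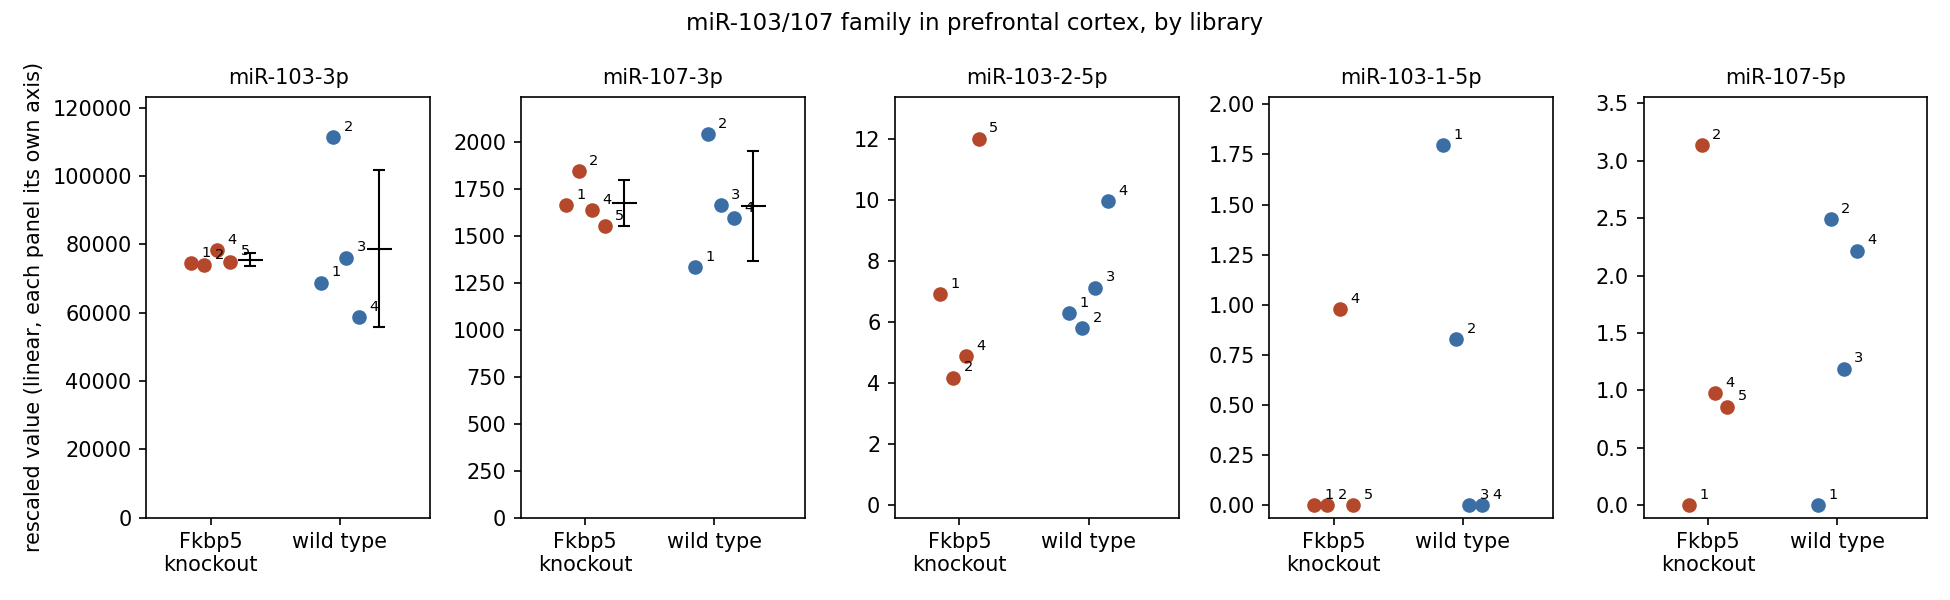
Rescaled value (linear axis, its own scale in each panel) of the 5 members in each library, with Fkbp5 knockout in red and wild type in blue and replicate numbers beside the points. Bars in the 3p panels are means ± SD (n = 4 each). The knockout points of miR-103-3p sit between 73990 and 78187, inside the wild-type range of 58651 to 111336.

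**Figure D3:**
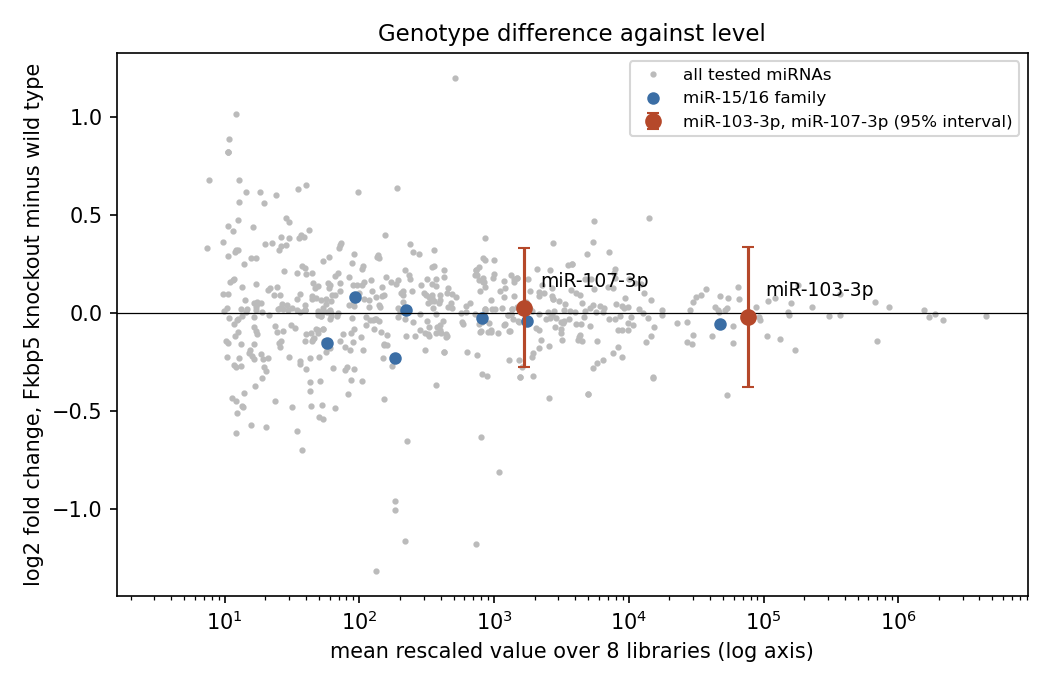
Log2 fold change (Fkbp5 knockout minus wild type) against mean rescaled value (log axis) for the 599 tested miRNAs in grey, the 7 tested members of the miR-15/16 family in blue, and miR-103-3p and miR-107-3p in red with 95% intervals. Both red points lie at -0.02 and 0.03, and both intervals cross 0.

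The 5p arms, the strands opposite the guides, had low deposited values, from 0 to 14. As deposited, miR-103-2-5p was at 6, 4, 5 and 14 in knockout replicates 1, 2, 4 and 5, and at 7, 7, 6 and 9 in wild-type replicates 1, 2, 3 and 4. It was the most abundant of the 3 in every library. miR-107-5p was at 0, 3, 1 and 1 in the knockout and at 0, 3, 1 and 2 in wild type, in the same orders of replicates. miR-103-1-5p was listed at 0 in knockout replicates 1, 2 and 5 and at 1 in replicate 4, and was at 2 and 1 in wild-type replicates 1 and 2 and listed at 0 in replicates 3 and 4. For each of the 3 names the genotypes overlapped, and they were not tested at this level. Since miR-103-1-5p and miR-103-2-5p differ only at the first base, a read that lacks it fits both, and how the authors assigned such reads is not given in the sources used here.

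The 2 miR-103 hairpins cannot be separated by their 3p arm, whose sequence is the same, but their 5p arms have separate names. Over the 8 libraries the deposited values summed to 58 for miR-103-2-5p of the Pank2 hairpin and to 4 for miR-103-1-5p of the Pank3 hairpin. miR-103-2-5p was higher than miR-103-1-5p in 8 of 8 libraries. These names differ at the first base alone, and how much miR-103-3p came from each hairpin was not measured. miR-107-5p of the Pank1 hairpin summed to 11.

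Set against their own guide arms, the 5p arms were in a different order. The 5p names made up 0.00984% of the deposited values of miR-103 and 0.0817% of those of miR-107 over all 8 libraries, a ratio of 8.30. The percentage was higher for miR-107 in 6 of 8 libraries, and in the other 2, knockout replicate 1 and wild-type replicate 1, miR-107-5p was listed at 0. With values of 0 to 3 behind the miR-107 percentage, it is a description with no test. Both percentages, and so their ratio, may also rest on how 3p reads too short to reach base 22 were assigned, which was not tested. The log2 ratio of all 5p to all 3p values of the family averaged -13.11 ± 0.42 in the knockout and -12.96 ± 0.55 in wild type (SD, n = 4 each), a difference of -0.15, smaller than either SD.

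In order of level, the members ran from miR-103-3p, place 26 of 1915 names by mean rescaled value, through miR-107-3p at place 171 and miR-103-2-5p at place 638, to miR-107-5p at 890 and miR-103-1-5p at 1082. All have the same length, so no correction for length was needed. The ranges of the last 2 overlapped in both genotypes, and those of the other neighbours in this order did not. miR-103-3p stood between let-7i-5p, a member of the let-7 family, at 81333 ± 7121 in the knockout and 82442 ± 15998 in wild type, and miR-191-5p at 67366 ± 3690 in the knockout and 64026 ± 2451 in wild type (SD, n = 4 each). Its range overlapped that of let-7i-5p in both genotypes and that of miR-191-5p in wild type only. miR-107-3p stood between miR-365-3p, at 1747 ± 203 in the knockout and 1678 ± 164 in wild type, and miR-298-5p, at 1464 ± 452 in the knockout and 1729 ± 307 in wild type (SD, n = 4 each), and its range overlapped with both.

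The proportion of the 2 guide arms was compared because it needs no scaling between libraries. miR-107-3p made up 2.18%, 2.43%, 2.05% and 2.03% of both guide arms in knockout replicates 1, 2, 4 and 5, and 1.90%, 1.80%, 2.14% and 2.64% in wild-type replicates 1, 2, 3 and 4. Wild type held both the lowest and the highest library, so the knockout libraries lay within its range. The log2 ratio of miR-107-3p to miR-103-3p averaged -5.50 ± 0.12 in the knockout and -5.54 ± 0.25 in wild type (SD, n = 4 each). The difference of 0.05 had a two-sided exact permutation p of 0.743 over 70 arrangements, whose smallest possible p is 0.0286. It was -0.0083 without knockout replicate 2 and -0.03 with wild-type replicate 2 left out. Over all 8 libraries miR-103-3p was 46.8-fold higher than miR-107-3p in the deposited values. How reads too short to reach base 22 were assigned is not given in the sources used here, so part of this ratio may rest on it, which was not tested.

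**Figure D4:**
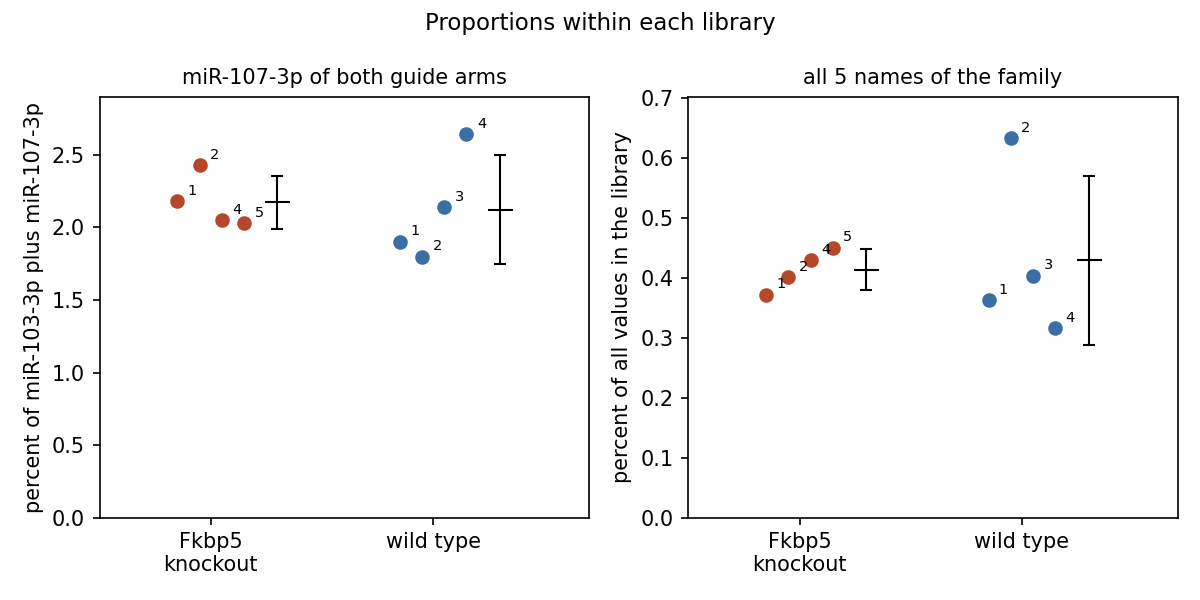
Left, miR-107-3p as a percentage of both guide arms, and right, the 5 names of the family as a percentage of all values, in each library (Fkbp5 knockout in red, wild type in blue, replicate numbers beside the points, bars are means ± SD, n = 4 each). The knockout libraries lie within the wild-type range in both panels, and wild-type replicate 2 is lowest on the left and highest on the right.

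The family as a whole took 0.372%, 0.401%, 0.430% and 0.450% of all values in knockout replicates 1, 2, 4 and 5, and 0.363%, 0.633%, 0.404% and 0.316% in wild-type replicates 1, 2, 3 and 4. Wild-type replicate 2 was the single library above the knockout range, and wild-type replicates 1 and 4 lay below it. On the log2 scale the summed rescaled level averaged 16.23 ± 0.03 in the knockout and 16.25 ± 0.39 in wild type (SD, n = 4 each), and the difference of -0.02 had a two-sided exact permutation p of 0.914. Without wild-type replicate 2 the difference was 0.16.

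For comparison the miRNAs of the miR-15/16 family, regulators of the cell cycle, were taken by their letters, and nearness in sequence was not measured. They carry AGCAGC from base 2 where miR-103-3p and miR-107-3p carry it from base 1. Their most abundant members are shown with bases 2 to 8 in capitals, to set the shift by a base beside the sequences above.
miR-16-5p: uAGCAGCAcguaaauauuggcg
miR-195a-5p: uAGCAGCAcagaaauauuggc
miR-15b-5p: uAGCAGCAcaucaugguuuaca
miR-15a-5p: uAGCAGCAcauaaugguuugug
Of 11 names in the files with these letters from base 2, miR-6342, miR-6353 and miR-6419 were listed at 0 in every library. Tested were 7 of the 11, and 0 passed by limma, where 0% of all 599 tested miRNAs did. With an unadjusted p under 0.05 there were 0 of 7, where 4.01% of all tested miRNAs had one. Mean log2 values of the 7 were higher in the knockout for 2 and lower for 5, with a median log2 fold change of -0.04 beside 0.02 over all tested miRNAs. miR-16-5p was at 46584 ± 3235 in the knockout and 48727 ± 6896 in wild type (log2 fold change -0.06), and miR-195a-5p at 1736 ± 131 in the knockout and 1800 ± 335 in wild type (-0.04; SD, n = 4 each). miR-15b-5p had a log2 fold change of -0.03 and miR-15a-5p of 0.02.

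The log2 ratio of the miR-103 and miR-107 family to this family was 0.64, 0.68, 0.74 and 0.49 in knockout replicates 1, 2, 4 and 5, and 0.52, 0.85, 0.64 and 0.38 in wild-type replicates 1, 2, 3 and 4. The miR-103 and miR-107 family was thus the more abundant in all 8 libraries. The means were 0.64 ± 0.11 in the knockout and 0.60 ± 0.20 in wild type (SD, n = 4 each), and the difference of 0.04 had a two-sided exact permutation p of 0.771. It was -0.04 without wild-type replicate 4, and dropping wild-type replicate 2 gave 0.12.

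A list of 15 miRNAs known for acting on glucose and lipid metabolism, the field in which the miR-103 and miR-107 family is best known, had 13 tested members. Of these 0 passed by limma, where 0% of all 599 tested miRNAs did. An unadjusted p under 0.05 was held by 1, miR-143-3p, and by 4.01% of all tested miRNAs. Mean log2 values of the 13 were higher in the knockout for 5 and lower for 8, with a median log2 fold change of -0.02 beside 0.02 over all tested miRNAs. miR-26a-5p was at 1680960 ± 66986 in the knockout and 1701610 ± 54639 in wild type, and miR-29a-3p at 90441 ± 2775 in the knockout and 92868 ± 17932 in wild type (SD, n = 4 each). miR-27b-3p was at 55762 ± 3546 in the knockout and 61819 ± 2156 in wild type. miR-143-3p, abundant in smooth muscle, was at 46589 ± 12374 in the knockout and 61208 ± 9158 in wild type (SD, n = 4 each). Its log2 fold change was -0.42, with an adjusted p of 0.967 by limma.

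Likeness between miRNAs was measured as the SD, over the 8 libraries, of the log2 ratio to the guide arm, among 204 others with a mean of at least 1000. A smaller SD means a closer course. Nearest to miR-103-3p were miR-93-5p (0.09), of the miR-106b cluster, miR-384-5p (0.11), miR-127-5p (0.14), an imprinted miRNA, miR-335-5p (0.15), from an intron of Mest, and miR-16-5p (0.15). The median over all 204 was 0.31. miR-107-3p, with the same seed, was at 0.18 and took place 8. Seen from miR-107-3p, the nearest were miR-99a-5p (0.08), miR-329-3p (0.10), miR-31-5p (0.11), miR-194-5p (0.11) and miR-127-5p (0.12), and miR-103-3p took place 44. These miRNAs share libraries and scaling.

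The likeness to each guide arm rests in part on wild-type replicate 2. In that library miR-93-5p was 1.41-fold, miR-335-5p 1.48-fold, miR-384-5p 1.31-fold and miR-16-5p 1.28-fold the mean of the other libraries, and miR-103-3p 1.54-fold. Without it miR-384-5p and miR-93-5p took places 1 and 2, but miR-127-5p took place 10, miR-16-5p place 15, miR-335-5p place 33 and miR-107-3p place 44. On the log2 scale miR-103-3p stood 0.63 above its mean in the other 7 libraries there, place 3 of 205 miRNAs with a mean of at least 1000, whose median was 0.03. Seen from miR-107-3p, without that library miR-329-3p and miR-99a-5p took places 1 and 2 and miR-31-5p place 7. There miR-194-5p took place 17, miR-127-5p place 24 and miR-103-3p place 51.

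Other measures of wild-type replicate 2 were mixed. It had the highest total and the largest scaling factor. Its 3 markers of epithelium and olfactory tissue, all present, summed to 3324, where knockout libraries ranged from 239.6 to 1621 and wild-type libraries from 399.1 to 3324. Its 3 markers of endothelium and smooth muscle, all present, summed to 95751, the highest of the 8, where knockout libraries ranged from 51451 to 82660 and wild-type libraries from 69826 to 95751. Its 3 oligodendrocyte markers summed to 15930, the second highest, and its 4 markers of microglia and leukocytes to 10172, in place 4. It took place 7 of 8 for the neuron markers, at 6350680, for the red blood cell markers, at 3512, and for miR-122-5p, at 358.0. Each sum of several markers was mostly its most abundant member, so its place says little of the others. In wild type miR-150-5p averaged 9332 of a mean microglia and leukocyte sum of 9878, and miR-219a-2-3p 14219 of an oligodendrocyte sum of 15063. There miR-486a-5p averaged 3503 of a red blood cell sum of 3986, and miR-143-3p 61208 of an endothelium and smooth muscle sum of 79152. The part of these measures in the level of miR-103-3p was not tested.

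**Figure D5:**
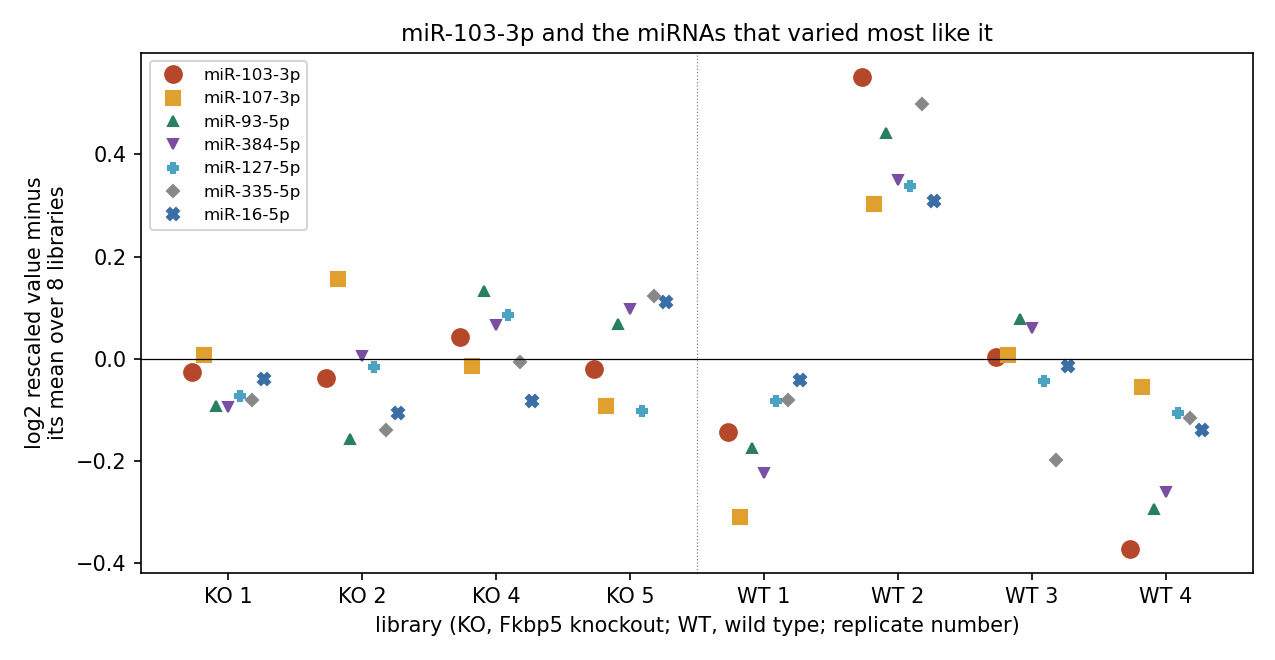
Log2 rescaled value minus its mean over the 8 libraries, for miR-103-3p, miR-107-3p and the 5 miRNAs that varied most like miR-103-3p, in each Fkbp5 knockout (KO) and wild-type (WT) library. All 7 are highest in wild-type replicate 2, and in wild-type replicate 4 miR-103-3p is the lowest of them.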

How the data were processed

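Small RNA from mouse prefrontal cortex was enriched on columns, ligated to adapters with a NEXTflex kit, selected on a gel and sequenced, per the labels' protocols. The submitters' processing notes name HTSeq 0.6.1p1, Bowtie 1.1.2, cutadapt 1.11 and edgeR, and the build mm10 (GRCm38), without order or settings. How reads that match several hairpins were counted is not given in the sources used here. The deposited values are called normalized counts, per the file headers, and were handled as a score of no fixed unit. They are whole numbers with unequal totals, so no scaling between libraries was visible, and no count model was run.

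Values were divided by library factors from a trimmed mean of log ratios (30% of ratios and 5% of levels trimmed at each end). Tested were the miRNAs that reached 10 in 4 or more libraries and 15 in total, 599 in all, using limma 3.58.1 in R 4.3.3 on log2(value + 1), moderated along a mean-variance trend, and p-values were adjusted by Benjamini-Hochberg with a threshold of 0.05. Fold changes are on that scale and come out too small for low miRNAs. For single quantities an exact permutation test, two-sided, was used. Likeness was the SD of log2 ratios. The procedure was tested on simulated data. These gave both genotypes the median SD of the knockout libraries, so they do not cover the wider wild-type spread of miR-103-3p.

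The members and lists were chosen with earlier results of these data known. The miRNAs named are the family itself, the 4 most abundant of each list, the 5 nearest by likeness and the neighbours in level. The sequence list was planned as GCAGCA at bases 2 to 7, which held miR-1906 alone, listed at 0 in every library. AGCAGC at bases 1 to 6 or 2 to 7 replaced it after that was seen. Sequences are from RefSeq, which held all 5 members, folds from RNAfold 2.7.2, and host genes from GENCODE (GRCm38). Alternatives were other scalings, filters, pseudocounts of 0.5 and 5, no trend, a replicate block and the omission of each library.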

Additional observations from a re-analysis of the deposited data

Results flagged for a closer look

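A library stood far from the rest of its genotype in 6 of the 70 sets of 4 values looked at. A rate of 5% would be 3.5 sets, but that rate is no measure of chance here. The sets are not independent, since wild-type replicate 2 accounts for 3 of the 6. miR-127-5p and miR-335-5p were named for their likeness to miR-103-3p, which rests in part on that library. For miR-103-1-5p a single knockout value above 0 met the rule.

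In the knockout, replicate 4 had the highest summed level of the family, 16.28 on the log2 scale where the others were at 16.21 to 16.22, a gap that is wide only beside the closeness of the others. The same library was the knockout library with a value above 0 for miR-103-1-5p, at a rescaled 0.977, which is 1 as deposited. Knockout replicate 2 was high for miR-191-5p, the neighbour of miR-103-3p in level, at 72856.5 where the others were at 65064 to 66177.

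Among wild-type libraries, replicate 2 was high for miR-127-5p, at 5563 where the others were at 4088 to 4271, and for miR-335-5p, at 31757 where the others were at 19586 to 21258. It was also high for the share of the miR-15/16 family, at 0.350% of the library where the others were at 0.243% to 0.259%.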

How the results depend on the processing

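The number of members past the threshold was 0 by limma in every alternative, and so was that of all tested miRNAs. The count with an unadjusted p under 0.05, 24, became 14 with upper quartile scaling, 9 in the values as deposited, 50 without a filter, 14 at a mean of at least 100, and 34 under the block and 38 in the same 6 libraries without it. Other scalings, pseudocounts, filters and no trend kept the direction of both guide arms. With 1 library left out, the log2 fold change of miR-103-3p was lowest at -0.16 (without wild-type replicate 4) and highest at 0.16 (without wild-type replicate 2), and that of miR-107-3p ran from -0.062 to 0.134. The difference in the log2 ratio of miR-107-3p to miR-103-3p ran from -0.027, with wild-type replicate 2 left out, to 0.162, with wild-type replicate 4 left out, and without knockout replicate 2 was -0.0083. The log2 summed level ran from -0.16 to 0.16, the 5p to 3p ratio from -0.36 to 0.10, and the ratio to the miR-15/16 family from -0.036 to 0.122. The cause was not tested.

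Nothing in the labels tells if equal replicate numbers mark a pair, and same-numbered libraries had correlations of 0.06, -0.04 and 0.13 between their deviations. A replicate block on numbers 1, 2 and 4 gave a log2 fold change of -0.01 ± 0.19 for miR-103-3p and 0.08 ± 0.17 for miR-107-3p (SE), and differences of 0.09 for the ratio of the guide arms, -0.01 for the summed level, -0.40 for the 5p to 3p ratio and 0.10 for the ratio to the miR-15/16 family. With 1 of these 8 libraries left out, the exact test can no longer reach 0.05. The low level of the 5p arms limits any comparison of arms.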

Other observations

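The closeness of the knockout libraries for miR-103-3p depended on the scaling, a point examined after its values were seen. After rescaling, the SD of its log2 values was 0.04 in the knockout and 0.39 in wild type, a ratio of wild type to knockout of 11.01, the highest of 205 miRNAs with a mean of at least 1000, whose median was 1.64. Without wild-type replicate 2 the ratio was 5.30, with no place or median taken for that set. Scaled by library total it was 3.60 (place 8, median 1.33), and by upper quartiles 1.598 (place 21, median 0.798). In the values as deposited it was 3.01 (place 15, median 1.63), and by the median of ratios 8.46 (again place 1, median 1.60). For miR-107-3p the ratio was 2.43 after rescaling, with SDs of 0.10 in the knockout and 0.25 in wild type. Wild-type replicate 2 was the highest library for both guide arms under all 5 scalings. No test of the spread was made.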
